A study of Mus musculus with 8 samples.

Results

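RNA contacts of DDX5, a DEAD-box RNA helicase, were examined on 10 genes of the epithelial cytoskeleton: the keratin genes Krt8, Krt18, Krt19 and Krt20, the cytoplasmic actin genes Actb and Actg1, and Vil1, Ezr, Plec and Eps8, whose products bundle actin, cap it or tie filaments to membranes and junctions. Every peak that overlapped one of these genes on its strand (GENCODE M21, GRCm38) was taken. They were 10 of 6555 genes with a listed peak, and they held 151 of 16455 peaks of the colon mAb list, 82 of 9146 of the colon rAb list and 43 of 1278 of the small intestine list. RNA bound by DDX5 had been mapped by eCLIPseq, in which UV light links protein to RNA, the protein is immunoprecipitated (IP) and its RNA is sequenced; fragments of like size, not immunoprecipitated, serve as input. Small intestine intestinal epithelial cells (IECs), released with EDTA, came from wild-type C57BL/6 females 8 weeks of age and gave 2 CLIP and 2 input samples, which were merged in 1 deposited list of reproducible peaks. Colonic IECs, released in the same way, gave 1 CLIP and 1 input sample labelled mAb and 1 of each labelled rAb. The colon samples were labelled C57BL/6 and wild type, but their growth protocol named Apcfl/+ CDX2Cre mice 120 days of age, in which the Cre is driven by the CDX2 promoter. The study's methods describe wild-type mice, and the conflict was not settled. The same antibody catalogue number stood on the mAb and rAb samples, so what separates them is not known here, and each colon list was named as a merge of replicates 1 and 2. No list gave values per replicate, so no comparison between lists had a replicate check and none was tested; all p-values below are those of the authors' peak caller and compare reads within 1 list.

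Keratins 8, 18, 19 and 20 are the intermediate filament proteins of simple epithelia, and a type II keratin such as keratin 8 pairs with a type I keratin such as keratin 18, 19 or 20 to build a filament. Actin filaments fill the microvilli of the brush border, where villin bundles them, ezrin ties them to the plasma membrane and Eps8 caps their growing ends. Plectin is a giant linker protein that joins keratin filaments to actin and to hemidesmosomes.

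Enrichment was the log2 of depth-normalised IP reads over input reads at a peak, and a site was a peak with both a −log10 p and a log2 fold of at least 3. In the mAb list 6 of the 151 peaks (3.97%) were sites, beside 1.22 percent of all listed peaks, and 3 of the 10 genes held a site (Krt8, Actb and Plec), beside 2.64 percent of all genes with a listed peak. These genes carried many peaks each (3 to 30, where the median over genes was 2), and a gene with more peaks has more chances to hold a site. In the rAb list none of the 82 peaks was a site, beside 1.99 percent of all listed peaks and 3.19 percent of genes with one. The small intestine list holds passing peaks only, so 100 percent of its peaks were sites; 8 of the 10 genes held 43 of them and Krt18 and Krt19 held none. Of all 6555 genes with a peak in any list, 490 (7.48 percent) held a small intestine site.

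The sites that the mAb and small intestine lists shared on these genes lay in introns. Of the 6 mAb sites, 4 lay in intron 1 of Krt8 and 1 in intron 1 of Actb, and each of these 5 overlapped a small intestine site by 23 to 50 bases. The remaining mAb site lay in coding exon 30 of Plec, where the small intestine had none. The rAb list held no site on these genes and no peak in intron 1 of Krt8 or Actb. Overlap of sites was not counted over all genes, so whether shared intronic sites are particular to these genes is not known. All 8 places where a small intestine site in an intron overlapped a mAb peak are printed here, because they include the 5 shared sites. Each is the union of both intervals, read from the bound strand of GRCm38. Capitals mark runs of at least 3 G.
Krt8 intron 1, chr15:102003635-102003665, minus strand: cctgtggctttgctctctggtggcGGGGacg
Krt8 intron 1, chr15:102003294-102003385, minus strand: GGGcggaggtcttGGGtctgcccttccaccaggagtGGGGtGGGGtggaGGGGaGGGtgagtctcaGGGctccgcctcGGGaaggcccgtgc
Krt8 intron 1, chr15:102002961-102003036, minus strand: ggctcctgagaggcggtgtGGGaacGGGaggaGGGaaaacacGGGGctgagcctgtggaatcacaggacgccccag
Krt8 intron 1, chr15:102002343-102002426, minus strand: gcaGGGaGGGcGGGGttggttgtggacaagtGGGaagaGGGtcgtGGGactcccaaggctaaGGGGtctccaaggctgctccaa
Actb intron 1, chr5:142906335-142906407, minus strand: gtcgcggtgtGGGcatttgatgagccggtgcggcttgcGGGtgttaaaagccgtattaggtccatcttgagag
Actb intron 1, chr5:142906177-142906222, minus strand: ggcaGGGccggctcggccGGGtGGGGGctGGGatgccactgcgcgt
Ezr intron 1, chr17:6778799-6778915, minus strand: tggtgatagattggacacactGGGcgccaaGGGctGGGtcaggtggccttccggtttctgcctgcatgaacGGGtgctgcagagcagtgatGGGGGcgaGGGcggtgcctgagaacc
Ezr intron 1, chr17:6777225-6777303, minus strand: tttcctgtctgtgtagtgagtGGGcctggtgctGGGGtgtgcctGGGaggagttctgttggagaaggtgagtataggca
Each of the 8 windows held at least 1 run of 3 or more G, and the Krt8 window with the most mAb reads held 8 such runs in 92 bases. G made up 38.4% to 52.2% of the bases of these windows.

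Krt8, a type II keratin gene of simple epithelia, had 18 mAb peaks, 12 rAb peaks and 9 small intestine sites. In the mAb list its 5 intron 1 peaks had log2 folds of 3.15, 2.89, 3.84, 3.89 and 3.89 in transcript order, and all but the second were sites. Its 13 exonic peaks spanned −1.55 to 1.46, so no exonic peak reached the lowest intronic one. The strongest of the intronic sites (chr15:102003299-102003385, −log10 p of 8.38) traced back to 29 IP and 3 input reads, and the 95% interval of its log2 fold, which covers counting error only, was 2.15 to 6.20. An exon 9 peak of similar depth (chr15:101996955-101997024, 21 IP and 26 input reads) had a log2 fold of 0.26 with an interval of −0.65 to 1.14. The other 3 intronic sites rested on 10 to 12 IP reads over 1 or 2 input reads, and their intervals reached down to 0.98 or 1.07.

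At the same places the small intestine sites of Krt8 had log2 folds of 3.14, 4.63, 4.56 and 4.16, in transcript order. The small intestine list held 5 further Krt8 sites, in coding exons 3, 4 and 6 and in intron 7, with log2 folds from 3.64 to 3.94. Across the coding sequence the colon peaks of Krt8 had median log2 folds of −0.36 (12 mAb peaks) and −0.20 (11 rAb peaks). In exon 6 the 2 adjoining small intestine sites, at 3.73 and 3.77, lay over a mAb peak at −0.99 and a rAb peak at −1.84. The sequence of 7 of the 18 mAb peaks and of 10 of the 12 rAb peaks on Krt8 had a further near-identical copy in the genome (at least 95% identity over at least 90% of the stretch searched), as had 1 of its small intestine sites, while none of the mAb sites had one. Whether reads were lost to or gained from such copies was not tested.

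**Figure D1:**
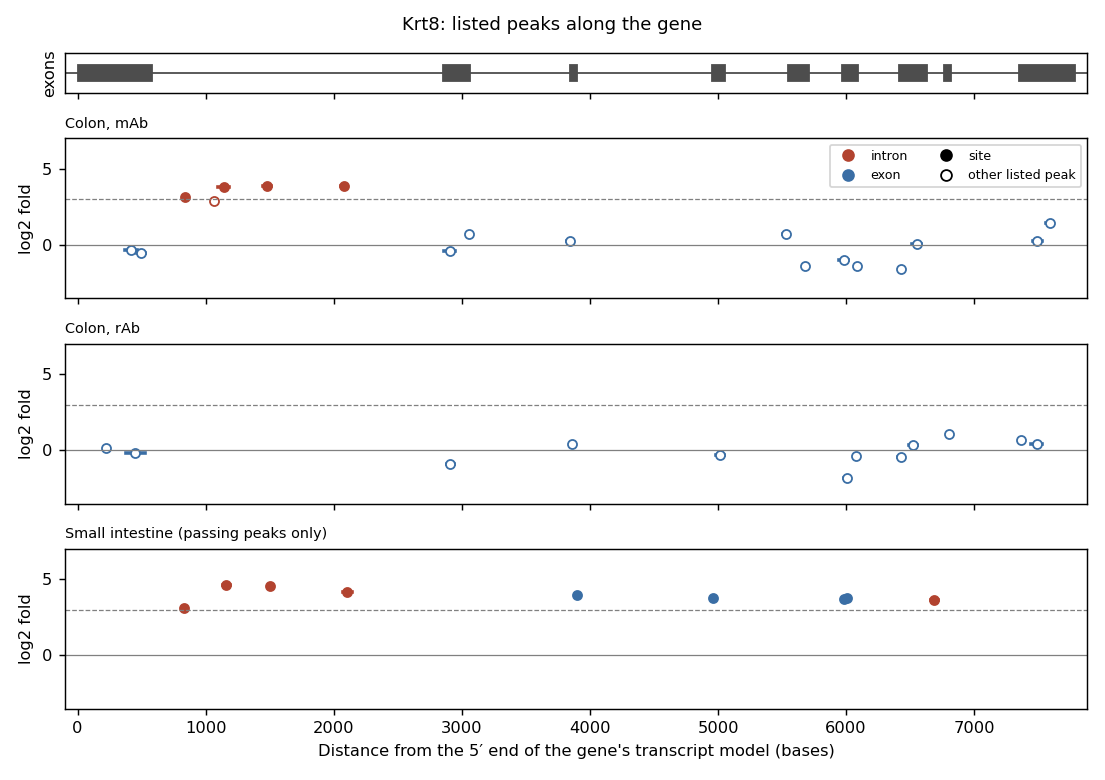
Listed peaks along Krt8 by list, with the distance in bases from the 5′ end of the transcript on the horizontal axis and log2 IP over input on the vertical axis; horizontal bars span the peaks, red marks introns and blue exons, filled points are sites, and the dashed line is the fold cutoff of 3. The 5 mAb peaks of intron 1 lie between 2.89 and 3.89, above every exonic mAb peak, and 4 of them lie over small intestine sites.

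Krt18, the usual partner of keratin 8, had no small intestine site. Its 8 mAb peaks ran from −1.34 to 1.15, and 7 of them were below 0, so that input exceeded IP. The exception was a peak in intron 6 at 1.15, with 3 IP and 2 input reads, which was the highest on the gene. Its 4 rAb peaks, all coding, ran from −0.27 to 0.48.

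Krt19, the smallest of the type I keratins, also had no small intestine site although it carried 14 mAb and 10 rAb peaks. All 24 of these were coding. The mAb peaks ran from −1.29 to 0.67 with a median of −0.44, and 11 were below 0. The rAb peaks ran from −1.57 to 0.65 with a median of 0.01, and 5 were below 0. The highest peak of each list lay in exons 6 (mAb, 0.67) and 5 (rAb, 0.65), under the cutoff of 3.

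Krt20, a keratin of differentiated cells of the villus and the upper crypt, showed the reverse. It held 10 small intestine sites, the most of any of the 10 genes, and only 3 mAb peaks and 1 rAb peak. The small intestine sites spread over coding exons 1, 3, 4, 7 and 8, intron 2 and the 3′ UTR in exon 8. Their log2 folds ran from 3.02 (exon 4) to 5.11 (intron 2), and the strongest by p was in exon 8 (chr11:99428984-99429079, log2 fold 3.86, −log10 p of 63.8). The 3 mAb peaks were at −0.44 (exon 1), 0.56 (exon 3) and 1.56 (exon 4), each overlapping a small intestine site, and the rAb peak was at 2.24 (exon 4) with 3 IP and 2 input reads. RNA levels were not part of these lists, so a gene with less RNA in a tissue cannot be told apart from one with less DDX5 on its RNA.

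Actb, which encodes β-actin, had 13 mAb peaks, 14 rAb peaks and 6 small intestine sites. All 6 small intestine sites lay in intron 1 of its longest coding transcript, at log2 folds of 5.36, 6.19, 3.28, 3.68, 4.31 and 3.76 in transcript order; the last is an untranslated exon in an alternative transcript. The site at 6.19 (chr5:142906357-142906391) was the highest on any of the 10 genes. In the mAb list intron 1 held 2 peaks. One was a site at 3.81 (chr5:142906181-142906222, −log10 p of 5.59, 19 IP and 2 input reads, interval 1.76 to 6.96). The other, over the small intestine site at 6.19, had the most IP reads of the intronic peaks (37, with 9 input reads, −log10 p of 7.15) but a log2 fold of 2.60, under the cutoff.

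The exonic peaks of Actb lay on the other side of 0. Of the 11 exonic mAb peaks 10 were below 0, with a range of −1.89 to 0.32, and of the 14 rAb peaks, all exonic, 11 were below 0, with a range of −1.26 to 0.58. The small intestine list had no site in the coding sequence of Actb. Near-identical copies elsewhere in the genome existed for 5 of the 13 mAb peaks and 7 of the 14 rAb peaks, and for none of the small intestine sites.

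**Figure D2:**
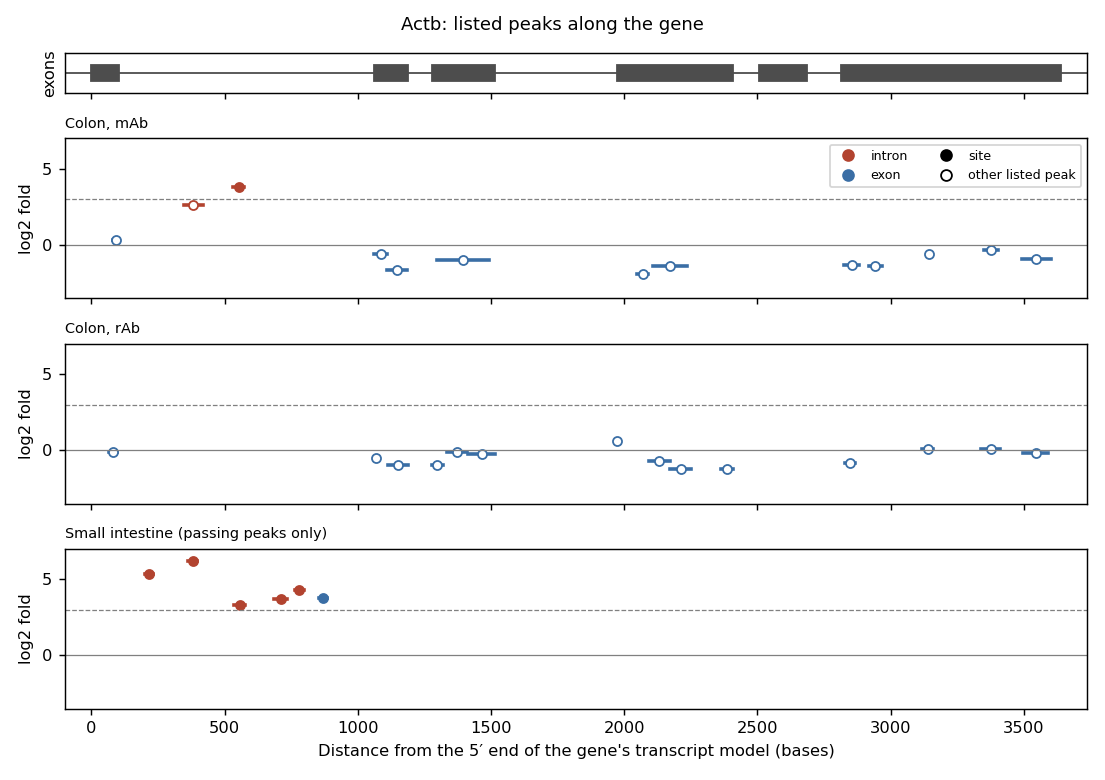
Listed peaks along Actb, drawn as for Krt8: distance in bases from the 5′ end of the transcript against log2 IP over input, with red for introns, blue for exons of any transcript, and filled points for sites. The small intestine sites and the mAb peaks at 2.60 and 3.81 lie in intron 1, while 10 of the 11 exonic mAb peaks are below 0.

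Actg1, which encodes the γ-actin of the cytoplasm, had 7 mAb peaks, 4 rAb peaks and 2 small intestine sites. The small intestine sites, at 3.32 and 4.28, lay in intron 1 of the longest coding transcript and were coding only in an alternative transcript. The highest mAb peak, at 3.15 with 6 IP reads over 1 input read (−log10 p of 1.70), lay in the same intron close to these sites without overlapping them and missed the p cutoff. The remaining mAb peaks ran from −2.17 to 1.56. The rAb peaks ran from −0.67 to 1.98, the highest in exon 2 with 10 IP and 8 input reads. Of the 7 mAb peaks on Actg1, 2 also overlapped another annotated gene on the same strand.

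Vil1, which encodes the actin bundling protein villin of the microvillus core, had 20 mAb peaks, 11 rAb peaks and 7 small intestine sites. Unlike on Krt8 and Actb, its coding peaks were mostly above 0 in colon. Its 18 exonic mAb peaks lay in 16 exons, and the 17 coding ones had a median log2 fold of 0.89 (highest 2.15). The 11 rAb peaks, all coding, ran from 0.43 to 2.65 with a median of 1.65. Among all listed coding peaks the medians were 0.98 (mAb) and 1.65 (rAb), so the coding peaks of Vil1 were near those of the lists at large. No colon peak on Vil1 was a site. The small intestine sites ran from 3.05 to 3.50 in coding exons 3, 6, 7 and 13 and reached 4.10 in intron 4. All 3 lists met in exon 13, where the small intestine site at 3.38 overlapped a mAb peak at 1.79 and a rAb peak at 2.39.

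Ezr, which encodes the membrane linker ezrin, had the most mAb peaks of the 10 genes (30), and 18 of them were intronic. The intronic peaks had a median log2 fold of 2.36 and ran from 1.15 to 3.56; 14 lay in intron 1. The 11 coding peaks had a median of −0.44. None of the 30 was a site, and the highest (chr17:6758037-6758085, intron 2, 8 IP reads over 1 input read) reached a −log10 p of 2.39. Of the 5 small intestine sites 3 lay in intron 1, at 4.98, 4.66 and 4.51, and the other two in exons 6 and 9 at 3.05 and 3.13. The sites at 4.66 and 4.51 overlapped mAb peaks at 3.37 and 2.56 that rested on 7 and 4 IP reads. The only intronic rAb peaks on the 10 genes were 2 adjoining ones in intron 1 of Ezr, at 3.65 with 4 IP reads over 1 input read each, and neither overlapped a peak of another list.

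Eps8, which encodes an actin capping and bundling protein of the microvillus tip, had 11 mAb peaks, 1 rAb peak and 1 small intestine site. The small intestine site lay in intron 2 at 5.45 (chr6:137548198-137548261, −log10 p of 7.54). The highest mAb peak, at 2.73 with 9 IP and 2 input reads, lay in the same intron but elsewhere. The rAb peak, in exon 10, was at 2.07 with 4 IP and 3 input reads.

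The highest intronic small intestine sites of Krt20, Vil1, Ezr and Eps8 are printed here, for comparison with the shared windows; no mAb peak overlapped them.
Krt20 intron 2, chr11:99435078-99435136, minus strand: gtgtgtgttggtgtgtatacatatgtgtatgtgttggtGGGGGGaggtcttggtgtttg
Vil1 intron 4, chr1:74418676-74418741, plus strand: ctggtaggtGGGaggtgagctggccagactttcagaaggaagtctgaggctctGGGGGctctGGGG
Ezr intron 1, chr17:6780054-6780117, minus strand: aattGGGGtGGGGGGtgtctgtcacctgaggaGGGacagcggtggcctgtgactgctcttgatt
Eps8 intron 2, chr6:137548198-137548261, minus strand: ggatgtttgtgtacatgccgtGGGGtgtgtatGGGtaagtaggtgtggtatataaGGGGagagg
All 4 held runs of at least 3 G, up to 6 bases long. Of the intronic small intestine sites on other genes, 354 of 453 (78.1%) held such a run.

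Plec, which encodes plectin, had sites in coding exons only, whereas the mAb sites of Krt8 and Actb were intronic. The single exonic mAb site lay in exon 30 (chr15:76183114-76183171, log2 fold 3.37, −log10 p of 3.85), with 14 IP and 2 input reads and an interval of 1.25 to 6.55. The rAb peak over it, with 8 IP and 4 input reads, passed neither cutoff (log2 fold 2.65, −log10 p 2.66). The 3 small intestine sites all lay in exon 32, at 3.67, 3.95 and 3.53 in transcript order. In colon, the 6 mAb peaks of exon 32 ran from −0.17 to 1.83 and its 4 rAb peaks from 0.65 to 2.65. The highest of these rAb peaks overlapped the small intestine site at 3.53, and no other colon peak overlapped a site there. The small intestine list holds only log2 folds of at least 3, while the colon lists hold all called peaks. These ranges therefore do not compare the tissues. The rAb peak nearest to passing on any of the 10 genes was also on Plec, in exon 33 (chr15:76173296-76173489, log2 fold 2.82, −log10 p of 3.13, 9 IP and 4 input reads). Over all its peaks the median log2 fold was 1.15 for 27 mAb peaks and 1.65 for 19 rAb peaks.

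Coding sequences are printed for Plec and Krt8 to set beside the intronic windows: the mAb site in exon 30, the highest small intestine site in exon 32, and the 2 adjoining small intestine sites in Krt8 exon 6 that had log2 folds below 0 in colon.
Plec exon 30, chr15:76183114-76183171, minus strand: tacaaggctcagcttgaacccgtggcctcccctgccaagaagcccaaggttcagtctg
Plec exon 32, chr15:76179948-76180014, minus strand: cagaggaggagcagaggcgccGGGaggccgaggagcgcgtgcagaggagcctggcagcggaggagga
Krt8 exon 6, chr15:101998457-101998511, minus strand: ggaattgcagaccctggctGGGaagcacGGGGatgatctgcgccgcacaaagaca
The Plec exon 30 site had no run of 3 G and was 24.1% G, whereas the Plec exon 32 site was 52.2% G with a single run.

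**Figure D3:**
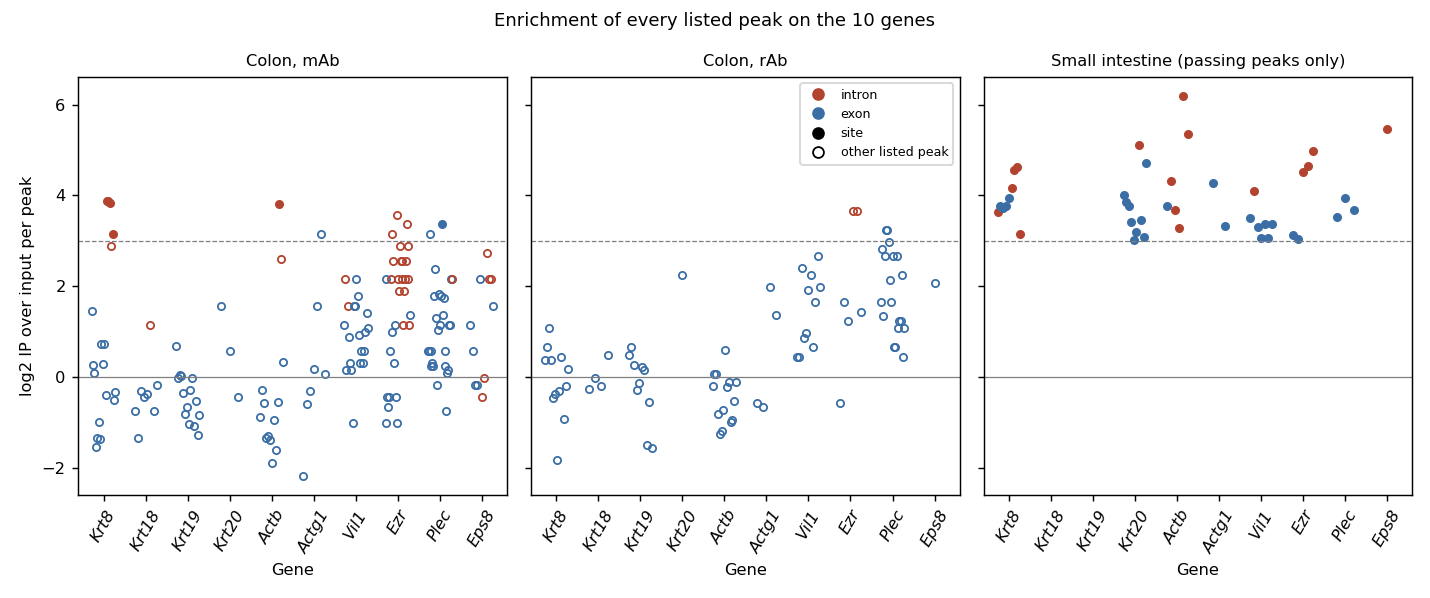
Log2 IP over input of every listed peak on the 10 genes, in 1 panel per list; each point is a peak, red in introns and blue in exons of any transcript, filled for sites, with the fold cutoff of 3 dashed. Filled points in the mAb panel are confined to Krt8, Actb and Plec, the rAb panel has none, and the small intestine panel has none on Krt18 and Krt19.

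Over all 10 genes, the coding share of peaks was 67.5% in the mAb list (exact 95% binomial interval 59.5 to 74.9), 89.0% in the rAb list (80.2 to 94.9) and 58.1% in the small intestine list (42.1 to 73.0). Among all listed peaks it was 49.8%, 55.5% and 31.7%. Peaks on 1 gene share their RNA and are not independent, so these intervals are a description. The mAb peaks split by position: 34 intronic peaks had a median log2 fold of 2.36 and held 5 sites (14.7%), while 102 coding peaks had a median of 0.15 and held 1 site (0.980%). Among all listed mAb peaks the medians were 2.15 in introns and 0.98 in coding sequence, with 2.30% and 0.574% sites, so the gap between introns and coding sequence was also present outside the 10 genes. In the rAb list 2 peaks were intronic and 73 coding, with a coding median of 0.48 beside 1.65 for all listed coding peaks. In the small intestine 16 intronic sites had a median of 4.53 and 25 coding sites 3.47, beside 4.84 and 3.73 for all listed sites of those regions.

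Peaks on these genes were less enriched than the listed peaks at large. The median log2 fold was 0.56 against 1.15 (mAb), 0.48 against 2.24 (rAb) and 3.76 against 4.29 (small intestine). In introns the order was the reverse for mAb (2.36 against 2.15) and for the 2 rAb peaks (3.65 against 3.24), but not for the small intestine (4.53 against 4.84). Peaks below 0 made up 34.4% of the mAb peaks on these genes, beside 16.1% of all, and 34.1% of the rAb peaks, beside 7.93% of all. Depth differed as well: the peaks on the 10 genes had a median of 5 (mAb) and 4 (rAb) traced IP reads, where all listed peaks had 3 in both lists. A peak of 3 IP reads over no more than 1 input read necessarily has a high fold. These medians leave out peaks with a −log10 p of 0, and so every peak below 0. Such peaks were 38.4% (mAb) and 34.1% (rAb) of those on the 10 genes, beside 20.7% and 8.97% of all. The parts of depth and of the larger coding share in these differences were not tested. Most negative values were on the keratin and actin genes; Vil1 had 1 and Plec 2 mAb peaks below 0, and neither had a rAb peak below 0.

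The colon lists had many exonic peaks in common on these genes. Of the 151 mAb peaks 55 (36.4%) overlapped a rAb peak, and 53 of the 82 rAb peaks (64.6%) overlapped a mAb peak, by at least 1 base. All 59 pairs were exonic, and none of the 34 intronic mAb peaks overlapped a rAb peak. The rAb list held only 2 intronic peaks on these genes, so few intronic overlaps were possible. Overlaps of the colon lists were not counted over all listed peaks, so whether they are particular to these genes is not known. Over the 59 pairs the log2 folds had a Spearman correlation of 0.820 and a Pearson correlation of 0.750, given as a description because paired peaks share a gene and its RNA level.

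Of the 43 small intestine sites 14 (32.6%) overlapped a mAb peak, and these were 13 of the 151 mAb peaks (8.61%). Intronic sites did so in 8 of 16 cases and exonic sites in 6 of 27. These overlaps too were not counted over all listed peaks, so whether they are particular to these genes is not known. Over the 8 intronic overlaps the median log2 fold was 4.53 in the small intestine and 3.59 in mAb, with 5 mAb sites. Over the 6 exonic overlaps it was 3.40 and 0.06, with 2 mAb peaks below 0, 1 of them under 2 sites. With a reciprocal overlap of at least 50%, 4 intronic and 2 exonic overlaps remained, and neither exonic one had a mAb value below 0 (median 1.18). The rAb list overlapped 6 small intestine sites (14.0%), all exonic, with a median rAb log2 fold of 0.84 and 2 rAb peaks below 0, 1 of them under 2 sites.

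**Figure D4:**
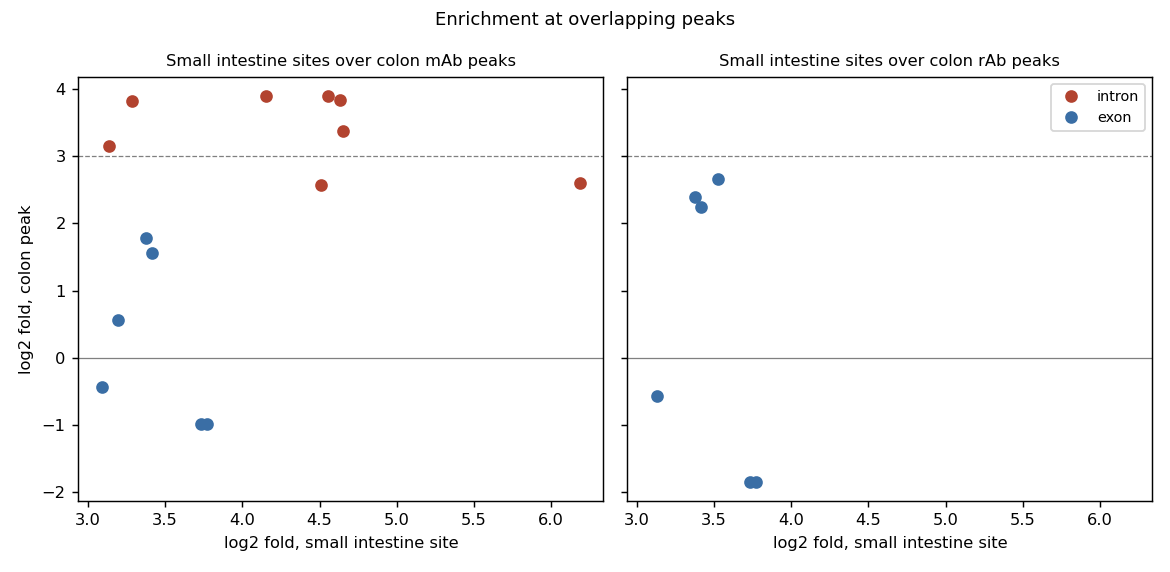
Log2 fold of small intestine sites (horizontal axis) against that of the colon peak overlapping them (vertical axis), for the mAb list on the left and the rAb list on the right; each point is an overlapping pair, red in introns and blue in exons, with the fold cutoff of 3 dashed. The 8 intronic pairs all have mAb values of at least 2.56, and the exonic pairs run from −0.99 to 1.79 in mAb and from −1.84 to 2.65 in rAb.

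The base make-up of the peaks was not used to choose them. The 16 intronic small intestine sites on the 10 genes had a median G content of 44.4% on the bound strand (34.2 to 58.3), close to the 42.5% of 453 intronic sites on other genes. A run of at least 3 G (GGG on the bound strand only) stood in 16 of 16, beside 354 of 453 (78.1%) on other genes. The 5 intronic mAb sites had a median G content of 48.3% with a run in 5 of 5, beside 33.3% and 53.3% for 90 intronic mAb sites elsewhere. The 29 intronic mAb peaks that were not sites had 33.3% G and a run in 21 (72.4%), beside 52.3% of 3999 such peaks on other genes. Exonic small intestine sites were 33.8% G with a run in 20 of 27 (74.1%), beside 33.3% and 58.4% for 782 on other genes. Exonic mAb peaks that were not sites were 31.6% G with a run in 64 of 116 (55.2%), close to the 31.1% and 52.1% of 12110 on other genes. These shares were not tested, and peaks of different lengths have different chances to hold a run.

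**Figure D5:**
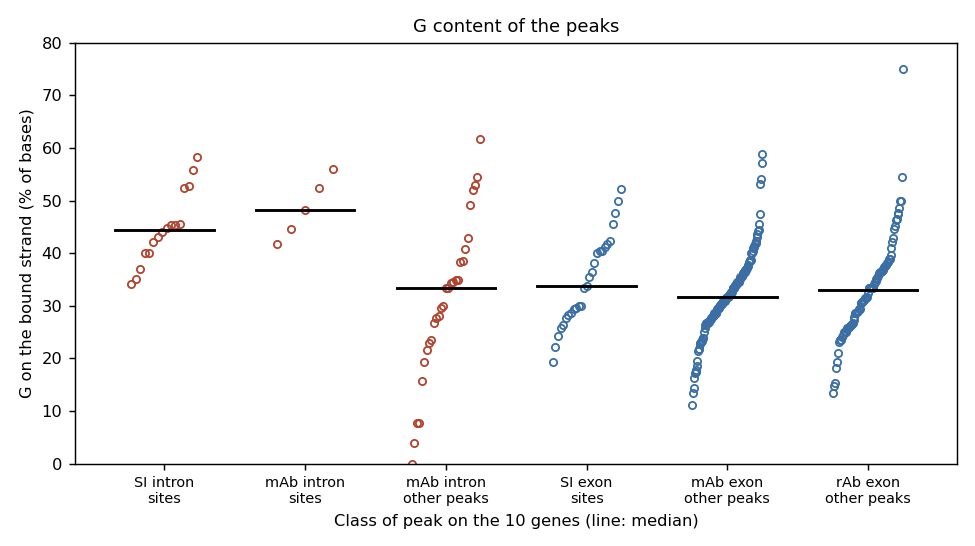
G content on the bound strand, in percent of bases, of peaks on the 10 genes in 6 classes; each point is a peak, red in introns and blue in exons, and the line is the median. The intronic sites of both tissues have medians of 44.4% and 48.3%, and the other classes shown have medians between 31.6% and 33.8%.

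Related genes were counted in 6 further lists with 58 genes in all. Of these, 33 had a mAb peak and 1 a mAb site (3.03%), and 26 had a rAb peak and 1 a rAb site (3.85%), near the 2.64 and 3.19 percent of all genes with a listed peak. There the mAb list held 1 site, on the brush border hydrolase gene Mgam (3.37), and the rAb list held 2, both on Actn1, an actin cross-linker (highest 3.35). In the small intestine, 13 of the 58 genes held a site, beside 7.48 percent of the 6555 genes with a peak in any list. The 58 include genes with no listed peak. Of the hydrolase genes, 5 of 10 held 31 sites, led by the disaccharidase genes Mgam (13 sites, highest 6.60) and Sis (9 sites, highest 4.30), and including Anpep (highest 3.49) and Enpep (3.25). Of 12 microvillus bundling and scaffold genes 3 held sites: Pls1, which encodes an actin bundler (5 sites, highest 5.68), Slc9a3r1, which encodes a scaffold that binds ezrin (2 sites, highest 4.92), and Anks4b (2 sites, highest 4.31). Of 12 actin-binding genes 3 held 1 site each, among them Cfl1 at 5.09 and Actn4 at 3.15. The desmosome linker gene Jup (5.37) was the 1 of 8 plakin and linker genes with a site, and Actr2 (3.89) was the 1 of 10 actin and Arp2/3 genes. None of 6 other keratin genes had one. Counts of 1 or none in lists this short cannot be told apart from the share over all genes.

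By counts of peaks and sites over the 3 lists (Euclidean distance of log2(1 + count), over 6554 other genes), the genes most like Krt8 included Actb and Ctnnb1, the latter at a distance of 1.52. Those nearest to Actb included Hnrnpa3 and Zfhx3 (0.66 and 0.93), and those nearest to Plec included Srrm2 and Cdh1 (1.07 and 1.21). The remaining members had sites in fewer than 2 lists.

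The labelled tissues were checked against marker genes. All 5 small intestine enterocyte markers held small intestine sites and none had a colon peak, while 4 of 4 colon epithelium markers had a mAb peak, 1 of 4 a rAb peak and none a small intestine site. A colon peak here is any called peak, a looser measure than a site. Of the colon markers only Muc2 held a mAb site, none held a rAb site, and only Muc2 had rAb peaks. Of the 6555 genes with a peak in any list, 5535 had a mAb peak, 3885 a rAb peak and 490 a small intestine site. Stroma markers had colon peaks as well (3 of 4 in mAb and 2 of 4 in rAb, with median log2 folds of −0.69 and 0.10), as had 1 of 4 immune markers in each colon list, and neither set had a small intestine site. The part of such cells in the colon values was not tested.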

How the data were processed

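The authors trimmed reads with cutadapt 1.9.1, aligned them to mm10 with STAR 2.4.0i and handled alignments with SAMtools 1.4.1 (from the submitters' processing notes), ran CLIPper on each IP library, and deposited for each peak a −log10 p and a log2 fold of depth-normalised IP reads over size-matched input reads. Small intestine peaks had passed an Irreproducible Discovery Rate analysis and cutoffs of 3 on both values; colon lists held all called peaks, with a −log10 p of 0 at every peak below a log2 fold of 0. The 3 lists that labels or descriptions tie to samples were used; 1 further list with 2 value columns could not be tied to a sample and was not used.

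Peaks were matched to GENCODE M21 genes on the strand (Python 3.11.15, pandas 2.3.3, pysam 0.24.0). Regions were called by any overlap, coding sequence first, over all transcripts; exon and intron numbers come from the transcript with the longest coding sequence. Read totals are not in the lists. IP and input reads were traced from fold and p within 1% (input over IP depth of 1.48 for mAb and 3.15 for rAb), which succeeded for 99.2% of 13011 mAb and 99.7% of 8282 rAb peaks with a −log10 p above 0, and for 89 and 53 of the peaks on the 10 genes; an input of 1 read can stand for 0. In simulated mAb peaks of 12 to 60 IP reads (497 peaks), 97.4% were recovered. The simulation used the same p formulas and a known depth ratio, so it could not check the ratio used for the data. That ratio came from taking the commonest fold as 3 IP reads over 1 input read. Intervals are exact, at 95%, and cover counting error only, since reads are not independent molecules. Copies in the genome were sought with BLAST+ 2.17.0 with peaks under 30 bases widened to 30 bases about their centre. Named were all 10 genes, their sites or else their highest peaks, up to 5 genes with sites of each further list, and the 3 genes nearest in counts; some genes that this rule names are not reported here. The genes, further lists and tests were chosen with earlier results of these data known.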

Additional observations from a re-analysis of the deposited data

Results flagged for a closer look

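At 3 places on these genes a small intestine site lay over a colon peak with more input than IP. The small intestine list holds only peaks with a log2 fold of at least 3, so any such colon peak differs from it in sign by selection. Reads could not be traced at these colon peaks, so their values have no interval. The difference was not tested, because no list has replicate values. In Krt8 exon 6 the 2 adjoining small intestine sites (3.73 and 3.77 on the log2 scale) shared 1 mAb peak at −0.99 and 1 rAb peak at −1.84. In Krt20 exon 1 a site at 3.09 lay over a mAb peak at −0.44, and in Ezr exon 9 a site at 3.13 lay over a rAb peak at −0.57. These came to 3 pairs with each colon list, all of them exonic.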

How the results depend on the processing

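The counts of sites depended on the cutoffs. With a −log10 p of 5 the mAb count of 6 became 2, and with a log2 fold of 4 it became 0 and the small intestine count of 43 became 14. With a log2 fold of 1 the rAb count of 0 became 1. Asking that at least 50% of a peak lie within exons left 1 mAb and 27 small intestine sites. A reciprocal overlap of 50% left 30 mAb peaks over rAb peaks, and 6 and 3 small intestine sites over mAb and rAb peaks. The other 31 of 40 alternatives left counts of sites within 1.5 times (mAb 7 at a log2 fold of 1, small intestine 39 with intervals joined and 42 without peaks that have another copy) and the coding shares and median folds within their intervals. An alternative chosen after seeing the data, 1 transcript per gene, gave an intron share of sites of 44.2% in the small intestine, against 37.2%, and 83.3% in mAb as before. Leaving out a replicate was not run because the small intestine list holds no values per replicate. Summed IP over input reads were not run because reads could not be traced at peaks with a −log10 p of 0, which were 58 of 151 mAb and 28 of 82 rAb peaks. No paired analysis was possible because only small intestine libraries share replicate numbers and their list is merged. A place with no listed peak gives no upper limit, since the lists hold called peaks only.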
